A study of Mus musculus with 144 samples.

Results

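The liver response of 129S1/SvImJ females to an atherogenic diet was read from 6 of the 144 arrays of a mouse survey of strain, diet and sex. The members are the 3 arrays titled as 129 females on the high-fat diet and the 3 titled as 129 females on chow, taken by title and not by any measured value. Both groups were inbred females, 1 animal an array, killed at 11 to 13 weeks of age. The high-fat group ate a diet of 30% fat with added cholic acid, and the control group ate regular chow of 6% fat. How long the diet was fed and the hour of tissue collection are not given in the sources used here. Because fat content and cholic acid came together in 1 diet, their shares in any change cannot be told apart. The survey covered 12 strains in both sexes on both diets with 3 animals in each of 48 groups, and the 24 arrays of CAST/EiJ and PERA/Ei mice, harvested after 50 weeks of age, were not used here. For comparison, the 6 arrays of 129S1 males and the 54 arrays of females of 9 other strains of the same age served. Those strains were SM/J, NZB/BINJ, MRL/MpJ-Tnfrsf6lpr/J, which carries the lpr allele in its name, I/LnJ, DBA/2J, C57BL/6J (B6), C3H/HeJ, BALB/cJ and A/J, called here by the first part of the name.

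Liver cells hold their cholesterol level by a feedback loop. When sterols are scarce, the transcription factor SREBP2 is released from the endoplasmic reticulum and drives the genes that make and import cholesterol, and when sterols are plentiful it is held back. Oxysterols at the same time activate the nuclear receptor LXR, whose targets export cholesterol into bile and onto lipoproteins. Cholic acid, a primary bile acid, aids uptake of dietary cholesterol and activates the receptor FXR, which represses bile acid synthesis. Diets of this kind are widely used to induce gallstones, fatty liver and hepatic inflammation in mice.

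Values are the deposited log2 intensities of an Affymetrix-type expression array, summarised per probe set, so a difference of 1 is a 2-fold change in measured intensity. The medians of the 6 arrays lay between 5.037 and 5.067 and the values of the whole table between 2.899 and 14.74. Arrays of a group correlated at 0.99 or above over 45037 probe sets. In a principal component analysis of the 6 arrays, the first component (33.4% of the variance) separated the diets, while on the second (26.7%) chow array 2 and high-fat array 1 lay apart from the other four. The tissue label was checked against markers: the hepatocyte marker Alb read 14.51, 14.51 and 14.54 on chow and 14.50, 14.48 and 14.51 on high fat, whereas the bile duct keratin Krt7 stayed between 4.40 and 4.64. Of 8 bile duct markers measured, 1 was called changed (3.92% of all genes were), Krt23, which rose on high fat, and the median change was -0.018. Since whole liver was used, more cells of a type and more RNA per cell cannot be told apart in any result that follows. A gene was called changed at a Benjamini-Hochberg adjusted p under 0.05 in limma, adjusted over all 45037 probe sets.

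The diet changed 713 of 18193 genes in these females (3.92%), of which 468 were higher (2.57%) and 245 lower (1.35%) on high fat. At least 2-fold changes made up 68 of the rises (0.374% of all genes) and 58 of the falls (0.319%). The median change over all genes was -0.005. In 634 of the 713 genes the 3 high-fat arrays did not overlap the 3 chow arrays, a pattern seen in 15.7% of all genes. The number rests partly on the spread pooled over 40 groups: a fit of the 6 arrays alone called 49 genes (36 higher, 13 lower), 47 of them among the 713. It also rests on single animals, since 426 genes were called without chow array 3 and 438 without high-fat array 3. After quantile normalization the split moved to 372 higher and 316 lower.

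Cholesterol synthesis was the most uniformly lowered pathway among the lists examined. Of its 17 measured enzymes, 15 fell (1.35% of all genes did), none rose, and the median change was -1.475. Sqle, squalene epoxidase and a rate-limiting step of the pathway, read 10.80, 7.92 and 8.74 on the chow arrays and 5.51, 5.52 and 5.07 on the high-fat arrays, a 13.8-fold fall (log2 -3.79 ± 0.39 (SE), adjusted p = 1.1e-11). The lowest chow value stood more than 2 log2 units above the highest high-fat value. Idi1, which interconverts the isoprenoid building blocks, read 11.92, 9.57 and 10.61 against 7.76, 7.63 and 6.78 (log2 -3.31 ± 0.37 (SE), adjusted p = 4.8e-10). Cyp51, the lanosterol demethylase, went from 10.39, 8.13 and 9.07 to 6.28, 6.15 and 5.75 (log2 -3.13 ± 0.30 (SE), adjusted p = 8.9e-13). The next enzymes in the removal of the sterol methyl groups also fell without overlap. Msmo1, the methyl sterol oxidase, read 11.80, 8.93 and 10.01 and then 7.72, 7.88 and 7.33 (log2 -2.61 ± 0.33 (SE), adjusted p = 2.5e-08). Nsdhl, the sterol dehydrogenase that follows it, read 11.43, 9.86 and 10.72 and 8.56, 8.14 and 7.71 (log2 -2.53 ± 0.29 (SE), adjusted p = 5.2e-10). Fdps, farnesyl diphosphate synthase, fell by 5.77-fold from 12.18, 9.87 and 11.06 to 8.91, 8.75 and 7.86 (adjusted p = 7.8e-06).

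Within the chow group these genes differed widely between animals, whereas the high-fat animals were close together. The mean over the 17 enzymes was 10.817, 9.036 and 9.737 in the chow arrays and 8.266, 8.102 and 7.855 in the high-fat arrays. Chow array 1 was the highest in most of them. Hmgcs1, the cytosolic HMG-CoA synthase at the head of the pathway, read 12.69, 10.45 and 10.39 on chow and 9.77, 9.54 and 9.86 on high fat (log2 -1.45 ± 0.32 (SE), adjusted p = 0.0027). Without chow array 1 its call was lost (log2 -0.69, adjusted p = 0.36), as were those of Mvk, mevalonate kinase (log2 -0.44, adjusted p = 0.36), and Fdft1, squalene synthase (log2 -0.41, adjusted p = 0.54). Fdft1 was lost without high-fat array 3 as well (log2 -0.83, adjusted p = 0.1). Over the pathway 12 of 17 enzymes fell without chow array 1, and between 14 and 16 fell when another array was left out. Ebp, the sterol isomerase, showed the smallest called change, from 11.84, 11.72 and 11.90 to 11.45, 11.34 and 11.36 (log2 -0.44 ± 0.10 (SE), adjusted p = 0.0025).

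**Figure D1:**
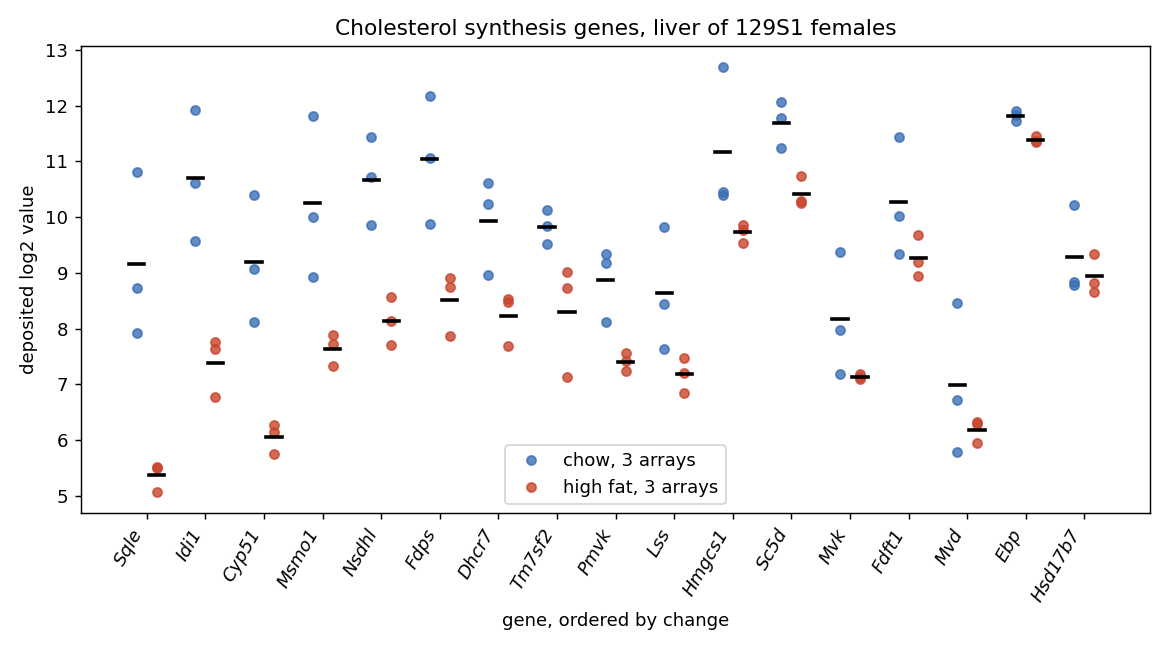
Deposited log2 values of the 17 cholesterol synthesis enzymes (horizontal axis, ordered by change) in 129S1 female liver; blue points are the 3 chow arrays, red points the 3 high-fat arrays, and bars the group means. Sqle lies between 7.92 and 10.80 on chow and between 5.07 and 5.52 on high fat, and the chow points are spread more widely than the high-fat points.

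The promoters of these enzymes share a short element that the choice of the list did not use. The box CCAAT, bound by the factor NF-Y that works beside SREBP2, was searched on both strands in the 250 bases before each gene start of the RefSeq table (build GRCm38.p6). It was present before a start of all 14 cholesterol synthesis genes with an entry, and before a start of 37.5% of 27025 genes overall. Counted by start, it stood before 14 of the 17 starts of these enzymes (82.4%) and before 33.8% of all 32851 starts. The box is not particular to these enzymes. It also stood before a start of 11 of 15 clock genes (73.3%) and 5 of 8 LXR targets (62.5%), the other lists searched. A strict sterol regulatory element, TCACNCCAC, occurred in 1 of the 14, Hmgcs1, and in 1.22% of all genes. The 4 promoters below belong to enzymes with full values above and run 5′ to 3′ on the gene's strand, with CCAAT or its reverse complement in capitals and, in Hmgcs1, the sterol element as well. They lie at chr13:119690101-119690350 (plus strand) for Hmgcs1, chr13:8885356-8885605 (plus strand) for Idi1, chr5:4104698-4104947 (minus strand) for Cyp51 and chr8:64733579-64733828 (minus strand) for Msmo1.
Hmgcs1: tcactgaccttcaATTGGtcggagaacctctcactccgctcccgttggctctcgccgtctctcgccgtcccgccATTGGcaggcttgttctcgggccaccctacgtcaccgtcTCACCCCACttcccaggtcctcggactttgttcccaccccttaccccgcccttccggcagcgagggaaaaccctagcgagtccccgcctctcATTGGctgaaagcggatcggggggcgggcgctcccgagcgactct
Idi1: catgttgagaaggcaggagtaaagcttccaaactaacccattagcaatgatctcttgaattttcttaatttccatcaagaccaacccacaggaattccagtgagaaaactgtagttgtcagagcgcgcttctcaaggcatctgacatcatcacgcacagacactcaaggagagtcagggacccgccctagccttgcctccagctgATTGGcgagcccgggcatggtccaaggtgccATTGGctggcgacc
Cyp51: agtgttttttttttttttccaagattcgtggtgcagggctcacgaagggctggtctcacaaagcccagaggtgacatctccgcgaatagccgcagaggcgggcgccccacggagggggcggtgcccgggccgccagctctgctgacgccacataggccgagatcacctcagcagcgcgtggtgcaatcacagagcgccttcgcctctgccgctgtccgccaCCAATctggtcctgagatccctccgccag
Msmo1: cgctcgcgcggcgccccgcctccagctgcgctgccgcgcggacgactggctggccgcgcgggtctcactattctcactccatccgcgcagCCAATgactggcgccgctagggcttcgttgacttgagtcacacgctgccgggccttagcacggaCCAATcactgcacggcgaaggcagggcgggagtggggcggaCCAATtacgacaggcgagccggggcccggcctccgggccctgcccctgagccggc
Hmgcs1 and Msmo1 hold 3 copies of the box each, Idi1 holds 2 and Cyp51 holds 1. In all, 8 motifs were searched after the expression values had been seen, and a match describes the letters only. The others were the E-box CACGTG, the PAR-type elements TTATGTAA and TTACGTAA, the LDL receptor form of the sterol element and a pair of direct repeats with a spacer, of the kind LXR binds. CACGTG was found before a start of 3 of the 14 genes and the rest before none.

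Regulators of sterol uptake split in direction. Of 9 measured, 2 rose, 2 fell and 5 were not called, with a median of -0.223, where 3.92% of all genes were called. Mylip, the ubiquitin ligase that degrades the LDL receptor and an LXR target, read 7.35, 8.22 and 7.12 on chow and 9.22, 8.55 and 9.17 on high fat (log2 1.42 ± 0.17 (SE), adjusted p = 1.8e-09). Rnf145, a sterol-responsive ubiquitin ligase of the endoplasmic reticulum, rose from 8.44, 8.37 and 8.37 to 9.55, 9.83 and 9.43 (log2 1.21 ± 0.16 (SE), adjusted p = 5.4e-08). Stard4, a carrier of cholesterol between membranes, fell (log2 -0.99 ± 0.24 (SE), adjusted p = 0.0067), and so did Scap, the escort of SREBP (log2 -0.41 ± 0.10 (SE), adjusted p = 0.0089). The Stard4 call was lost without female chow 1 or female high-fat 3 (log2 -0.74 to -0.71, adjusted p from 0.16 to 0.17), and the Scap call without female chow 3 or female high-fat 2 (log2 -0.36 to -0.30, adjusted p from 0.085 to 0.17). Srebf2 itself, which encodes SREBP2, differed by -0.29 (adjusted p = 0.26) and Insig1, which retains the complex, by -0.41 (adjusted p = 0.75).

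The targets of LXR moved the opposite way from the synthesis enzymes. Of 10 measured, 9 rose (2.57% of all genes did), none fell, and the median change was 1.373. Abcg5 and Abcg8, the paired half-transporters that pump sterols into bile, rose together: Abcg5 read 10.02, 10.27 and 9.84 on chow and 12.01, 12.01 and 12.15 on high fat, a 4.03-fold rise (log2 2.01 ± 0.15 (SE), adjusted p = 8.6e-19). Abcg8 read 9.13, 9.18 and 8.77 and 10.86, 10.83 and 11.13 (log2 1.92 ± 0.17 (SE), adjusted p = 7.2e-14). Their chow and high-fat values were far apart and each group was narrow. Lpl, lipoprotein lipase, low in healthy adult liver, went from 8.41, 9.38 and 8.98 to 10.92, 11.10 and 11.47 (log2 2.24 ± 0.27 (SE), adjusted p = 3.8e-09). Abcg1, a cholesterol exporter of macrophages and liver, went from 6.58, 7.47 and 6.99 to 8.17, 8.61 and 8.68 (log2 1.48 ± 0.20 (SE), adjusted p = 1.1e-07). Pltp, the phospholipid transfer protein, went from 8.73, 8.69 and 9.15 to 10.18, 9.76 and 10.62 (log2 1.33 ± 0.19 (SE), adjusted p = 1.1e-06). Srebf1, the regulator of fatty acid synthesis, rose by 2.28-fold (log2 1.19 ± 0.24 (SE), adjusted p = 0.0009) and Abca1, the exporter that loads HDL, by 1.49-fold (log2 0.57 ± 0.10 (SE), adjusted p = 3.5e-05). Lpcat3, a phospholipid remodelling enzyme, rose by 1.35-fold (log2 0.44 ± 0.11 (SE), adjusted p = 0.011), but not without female chow 1 or female high-fat 3 (log2 0.38 to 0.40, adjusted p from 0.074 to 0.1).

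Among 14 bile acid synthesis genes, 1 rose and 1 fell, where 3.92% of all genes were called. At an unadjusted p under 0.05 in limma the counts were 7 of these 14 and 4 of 17 sensing and transport genes. Over all genes that count was 2849 of 18193. Cyp8b1, the sterol 12-alpha-hydroxylase that directs synthesis towards cholic acid, read 10.06, 10.17 and 10.10 on chow and 7.23, 8.38 and 8.76 on high fat (log2 -1.99 ± 0.37 (SE), adjusted p = 0.00019). Cyp7a1, the rate-limiting enzyme of the classical route, read 8.57, 9.76 and 8.21 and 10.85, 11.58 and 8.74, overlapping groups with a difference of 1.54 (adjusted p = 0.19). Without high-fat array 3, the lowest of its group, that difference was log2 2.37, adjusted p = 0.029. The gene that rose was Scp2, a sterol carrier and peroxisomal thiolase (log2 0.23 ± 0.05 (SE), adjusted p = 0.0012), and its call was lost without female chow 3 (log2 0.14, adjusted p = 0.14). Of 17 sensing and transport genes only Abcb1a, a multidrug exporter, was called (log2 0.84 ± 0.24 (SE), adjusted p = 0.029), and its call was lost without female chow 2, female chow 3 or female high-fat 2 (log2 0.62 to 0.81, adjusted p from 0.11 to 0.26). Nr0b2, the repressor SHP induced by FXR, read 9.34, 9.50 and 10.16 on chow and 9.41, 9.50 and 9.86 on high fat (adjusted p = 0.98). Slco1a1, an organic anion uptake carrier, read 6.04, 9.95 and 8.52 and 7.43, 6.29 and 6.68 (log2 difference -1.37, adjusted p = 0.24), with chow array 1 below all high-fat arrays, and without chow array 1 it was called lower (log2 -2.44, adjusted p = 0.0072). Abcb11, the bile salt export pump, differed by -0.07 (adjusted p = 0.92).

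Fatty acid synthesis showed no common direction: 4 of 18 genes rose, 2 fell, and the median was 0.203, where 3.92% of all genes were called. Scd1, the desaturase that makes oleate, read 10.96, 13.22 and 13.27 on chow and 14.18, 14.10 and 14.15 on high fat (log2 1.66 ± 0.25 (SE), adjusted p = 2.5e-06), near the top of the array's range in the high-fat group. Chow array 1 was low in Scd1 and high in the cholesterol enzymes. Lpin1, a phosphatidate phosphatase and transcriptional coactivator, rose without overlap from 8.04, 8.38 and 8.18 to 9.65, 10.13 and 10.19 (log2 1.79 ± 0.38 (SE), adjusted p = 0.0016). Fasn, the fatty acid synthase, overlapped at 10.50, 8.63 and 10.38 and 10.36, 10.12 and 10.07 (adjusted p = 0.88). Fads1, the delta-5 desaturase, fell from 11.42, 11.19 and 11.52 to 10.74, 9.94 and 10.43 by 2.01-fold (adjusted p = 9.3e-05). Acss2, which makes cytosolic acetyl-CoA from acetate, fell (log2 -1.28 ± 0.27 (SE), adjusted p = 0.0014), a call lost without female chow 3 (log2 -0.95, adjusted p = 0.08). The remaining rises, Dgat2 and Mlxipl, were each lost when any of several arrays was left out: Dgat2 without female chow 2, female chow 3, female high-fat 1 or female high-fat 3 (log2 0.32 to 0.35, adjusted p from 0.12 to 0.15) and Mlxipl without female chow 2, female high-fat 1 or female high-fat 3 (log2 0.41 to 0.50, adjusted p from 0.097 to 0.21). Pklr, liver pyruvate kinase in the glucose list, rose from 7.68, 8.18 and 8.33 to 10.25, 9.08 and 9.31 (log2 1.48 ± 0.30 (SE), adjusted p = 0.00071).

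Outside these pathways the largest rise belonged to Sult1e1, the sulfotransferase that inactivates oestrogens. It read 5.92, 4.52 and 5.41 on chow and 9.07, 8.38 and 7.86 on high fat (log2 3.16 ± 0.29 (SE), adjusted p = 7.3e-14). Nox4, a hydrogen peroxide producing oxidase, read 4.02, 5.54 and 4.09 and 7.74, 6.46 and 6.66 (log2 2.40 ± 0.41 (SE), adjusted p = 3e-05). The chow values of both lay below or less than 1 log2 unit above the array medians, and the table holds no detection calls, so the sizes of these changes are uncertain. Adam11, a non-catalytic member of the ADAM family, read 6.20, 6.17 and 5.89 and 7.99, 7.91 and 8.81 (log2 2.15 ± 0.18 (SE), adjusted p = 2.3e-15). Krt23, a keratin and a member of the bile duct marker list, rose from 6.90, 6.48 and 7.09 to 8.52, 8.30 and 8.80 (log2 1.72 ± 0.33 (SE), adjusted p = 0.00031). In each of these 4 genes the groups were fully apart. Rgs16, a brake on G-protein signals, read 6.33, 7.52 and 9.70 and 9.91, 10.82 and 10.72 (log2 2.63 ± 0.57 (SE), adjusted p = 0.0018), a call lost without female chow 1 (log2 1.87, adjusted p = 0.1). Mfsd2a, a lysophospholipid carrier, read 8.33, 8.61 and 8.30 and 10.55, 10.05 and 10.52 (log2 1.96 ± 0.50 (SE), adjusted p = 0.013), lost without female chow 1, female chow 3, female high-fat 1 or female high-fat 3 (log2 1.87 to 1.92, adjusted p from 0.051 to 0.061).

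The largest fall was that of Mup10, a major urinary protein, at 8.97, 9.65 and 11.27 on chow and 7.45, 4.42 and 6.14 on high fat (log2 -3.96 ± 0.54 (SE), adjusted p = 2.7e-07). Major urinary protein genes are near-identical copies, so which of them the probe set reads is uncertain. Egr1, an immediate-early transcription factor, fell 15.1-fold, from 10.32, 10.56 and 10.42 to 6.42, 6.50 and 6.63 (log2 -3.92 ± 0.70 (SE), adjusted p = 8.6e-05), with little spread in either group. Id1, an inhibitor of helix-loop-helix factors and a target of BMP signalling, read 7.68, 8.03 and 7.97 and 6.38, 6.37 and 6.68 (log2 -1.42 ± 0.26 (SE), adjusted p = 0.0001). Dio1, the deiodinase that activates thyroid hormone, read 10.57, 10.91 and 10.87 and 9.27, 8.28 and 9.16 (log2 -1.88 ± 0.37 (SE), adjusted p = 0.00038). Enho, which encodes the peptide adropin, read 9.19, 9.62 and 9.55 and 6.88, 8.17 and 7.62 (log2 -1.90 ± 0.29 (SE), adjusted p = 3.4e-06). Falls without overlap were seen too in Sult5a1, a sulfotransferase (log2 -2.22 ± 0.28 (SE), adjusted p = 2e-08), and Paqr9, a membrane receptor family member (log2 -1.87 ± 0.28 (SE), adjusted p = 1.7e-06). Cyp26a1, which breaks down retinoic acid, read 9.96, 7.64 and 8.24 and 6.66, 6.55 and 6.51 (log2 -2.04 ± 0.41 (SE), adjusted p = 0.00055), lost without female chow 1 (log2 -1.37, adjusted p = 0.078).

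Of 15 genes with female-biased expression in liver, 4 fell and 1 rose, and 7 were higher and 8 lower on high fat, with a median of -0.061. Of 18 male-biased genes 2 fell and none rose, 3 were higher and 15 lower, and the median was -0.172. Over all genes 2.57% rose and 1.35% fell. The male-biased genes that fell were Nudt7, a peroxisomal hydrolase of coenzyme A (log2 -1.26 ± 0.24 (SE), adjusted p = 0.00024), lost without female high-fat 3 (log2 -0.86, adjusted p = 0.05), and C8b, a complement chain (log2 -0.84 ± 0.25 (SE), adjusted p = 0.047), lost without female chow 1, female chow 2, female chow 3, female high-fat 1 or female high-fat 3 (log2 -0.90 to -0.68, adjusted p from 0.069 to 0.26). No test was made of the difference between these lists. Cyp3a16, a steroid-metabolising P450, read 6.98, 7.79 and 8.37 on chow and 6.40, 3.90 and 3.64 on high fat (log2 -3.06 ± 0.52 (SE), adjusted p = 3.5e-05), and high-fat array 1 kept a higher value than the other two. Its relatives in the Cyp3a cluster are similar in sequence, so the probe set may read more than this gene. Lifr, the leukaemia inhibitory factor receptor, fell from 10.50, 11.21 and 11.62 to 10.16, 9.26 and 9.70 (log2 -1.40 ± 0.25 (SE), adjusted p = 0.00012). Hao2, a peroxisomal hydroxyacid oxidase, fell (log2 -1.17 ± 0.29 (SE), adjusted p = 0.011), though not without female chow 2, female chow 3 or female high-fat 2 (log2 -1.08 to -0.99, adjusted p from 0.058 to 0.1). Slc22a26, an organic anion carrier, fell (log2 -1.27 ± 0.25 (SE), adjusted p = 0.00052), though not without female high-fat 2 (log2 -0.83, adjusted p = 0.072). Lepr, the leptin receptor, was the member that rose, from 6.66, 5.81 and 5.83 to 7.21, 8.16 and 7.56 (log2 1.55 ± 0.35 (SE), adjusted p = 0.0028). Among 24 P450 and flavin monooxygenase genes, 2 rose and 3 fell, where 3.92% of all genes were called. Fmo5 read 11.46, 10.80 and 11.03 and 11.85, 12.25 and 11.74 (log2 0.85 ± 0.17 (SE), adjusted p = 0.00047), whereas Cyp3a11, the main inducible P450 of bile acid and drug clearance, was near the top of the range in both groups at 13.67, 13.83 and 13.73 and 13.79, 13.87 and 13.83 (adjusted p = 0.66).

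Of 23 macrophage markers, 4 rose and 1 fell in females, where 3.92% of all genes were called. On high fat 21 of the 23 were higher, and 11 did not overlap between diets (15.7% of all genes did not). An unadjusted p under 0.05 was seen in 11, against 2849 of 18193 over all genes. The median change was 0.273, and their mean level was 7.726, 8.128 and 8.053 on chow and 8.213, 8.434 and 8.647 on high fat. Lgals3, galectin-3 of lipid-laden macrophages, read 7.01, 7.68 and 7.04 on chow and 8.96, 9.96 and 9.36 on high fat (log2 2.18 ± 0.35 (SE), adjusted p = 1.4e-05). Cd5l, an apoptosis inhibitor secreted by macrophages and an LXR target, went from 9.18, 10.19 and 9.50 to 10.80, 10.79 and 11.25 (log2 1.32 ± 0.22 (SE), adjusted p = 3.3e-05). Mpeg1, perforin-2, went from 8.68, 8.66 and 9.12 to 9.78, 10.23 and 10.30 (log2 1.28 ± 0.29 (SE), adjusted p = 0.0027). Gpnmb, a lysosomal glycoprotein, rose (log2 1.04 ± 0.31 (SE), adjusted p = 0.043), lost without female chow 1, female chow 2, female chow 3, female high-fat 2 or female high-fat 3 (log2 0.80 to 1.14, adjusted p from 0.07 to 0.26). Cd163, the haemoglobin scavenger receptor, fell from 6.76, 7.82 and 6.75 to 6.14, 4.85 and 6.00 (log2 -1.45 ± 0.34 (SE), adjusted p = 0.0054), lost without female chow 2 or female high-fat 2 (log2 -1.09 to -1.04, adjusted p from 0.12 to 0.14). The defining markers Adgre1 and Csf1r overlapped between diets, Adgre1 at 7.45, 8.05 and 7.97 and 7.84, 7.76 and 8.30 (adjusted p = 0.92) and Csf1r at 10.42, 11.00 and 10.70 and 10.73, 10.46 and 11.07 (adjusted p = 0.98). Of 24 acute phase genes 1 rose, Saa3, the serum amyloid made by macrophages and fat as well as liver, from 6.54, 7.17 and 6.52 to 8.75, 9.76 and 9.42 (log2 2.57 ± 0.52 (SE), adjusted p = 0.00077). Saa1, the main hepatic serum amyloid, ranged from 8.23 to 11.53 among the chow arrays alone (8.23, 9.29 and 11.53) and read 10.32, 11.11 and 11.43 on high fat (adjusted p = 0.37). Apcs, serum amyloid P, fell (log2 -0.69 ± 0.19 (SE), adjusted p = 0.025), lost without female chow 1, female chow 3, female high-fat 1 or female high-fat 3 (log2 -0.70 to -0.55, adjusted p from 0.072 to 0.21).

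Endothelial markers rose in 8 of 12 genes and none fell, with 11 of 12 higher on high fat, and their median change was 0.464. Over all genes 2.57% rose, and 8818 of 18193 were higher on high fat. Stab2, the scavenger receptor of sinusoidal endothelium, read 8.66, 9.24 and 8.41 on chow and 9.88, 9.51 and 10.31 on high fat (log2 1.13 ± 0.17 (SE), adjusted p = 2.3e-06). The other changes were smaller: Vwf, von Willebrand factor, rose by 1.67-fold (log2 0.74 ± 0.16 (SE), adjusted p = 0.0012) and Pecam1, an endothelial adhesion molecule, by 1.44-fold (log2 0.53 ± 0.13 (SE), adjusted p = 0.008). The Vwf call was lost without female high-fat 3 (log2 0.56, adjusted p = 0.07), and that of Pecam1 without female chow 1, female chow 3, female high-fat 2 or female high-fat 3 (log2 0.44 to 0.50, adjusted p from 0.052 to 0.1). Of the 12 markers, 2 rose without chow array 3 and 3 without high-fat array 3, and 6 rose after quantile normalization. Matrix and stellate cell genes rose in 4 of 25, with 24 of 25 higher on high fat and a median of 0.370. Ccn2, connective tissue growth factor, was the clearest, from 6.15, 5.75 and 6.18 to 7.88, 7.36 and 8.36 (log2 1.84 ± 0.33 (SE), adjusted p = 0.00011). Col1a1 read 5.88, 6.02 and 6.16 and 5.99, 6.55 and 6.80 (adjusted p = 0.38). Mmp12, a macrophage elastase, rose (log2 1.53 ± 0.37 (SE), adjusted p = 0.0068), lost without female high-fat 2 (log2 1.19, adjusted p = 0.11). The matrix count was 2 to 6 of 25 when single arrays were left out, the lowest without chow array 1 or high-fat array 2.

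Some clock genes changed in females. Of 16 clock genes 3 rose and 1 fell, with a median of 0.250, where 3.92% of all genes were called. At an unadjusted p under 0.05 in limma the count was 10 of 16, against 2849 of 18193 over all genes. Per1, a repressor in the core loop, read 5.84, 5.57 and 5.79 on chow and 6.71, 7.25 and 6.66 on high fat (log2 1.14 ± 0.23 (SE), adjusted p = 0.0006). Tef, a clock-controlled transcription factor, read 8.94, 8.09 and 8.21 and 9.53, 9.87 and 9.16 (log2 1.11 ± 0.21 (SE), adjusted p = 0.00031). Dbp, its close relative, read 9.12, 6.13 and 7.99 and 10.50, 10.76 and 8.11 (log2 2.05 ± 0.45 (SE), adjusted p = 0.0022), and high-fat array 3 lay below the highest chow array. The Dbp call was lost without female chow 2, female high-fat 1 or female high-fat 2 (log2 1.24 to 1.69, adjusted p from 0.05 to 0.18). Arntl, the activator BMAL1 that peaks opposite to Per1 and Dbp, fell from 7.34, 7.90 and 7.32 to 6.51, 5.94 and 7.28 (log2 -0.94 ± 0.25 (SE), adjusted p = 0.02), lost without female chow 2, female high-fat 1 or female high-fat 2 (log2 -0.91 to -0.62, adjusted p from 0.074 to 0.29). Noct, a rhythmic NADP phosphatase, read 5.90, 5.87 and 5.99 and 8.88, 8.87 and 6.84 (log2 2.28 ± 0.62 (SE), adjusted p = 0.024), lost without female chow 1, female chow 2, female chow 3, female high-fat 1 or female high-fat 2 (log2 1.93 to 2.31, adjusted p from 0.066 to 0.16). Nr1d1, another rhythmic repressor, differed by -0.11 (adjusted p = 0.92). The part of the hour of collection in these values was not tested. The number of clock genes that rose was 2 without chow array 2, high-fat array 1 or high-fat array 2, and 6 without chow array 1 or high-fat array 3.

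An E-box, CACGTG, the element bound by the clock activators, stood in the 250 bases before a start of 5 of 15 clock genes with an entry, and before a start of 6.86% of all genes. The 2 clock genes that rose and kept their calls when any 1 female array was left out, Per1 and Tef, both hold 1 copy, shown in capitals for 1 of the 2 starts listed for each, at chr11:69098699-69098948 (plus strand) and chr15:81802423-81802672 (plus strand).
Per1: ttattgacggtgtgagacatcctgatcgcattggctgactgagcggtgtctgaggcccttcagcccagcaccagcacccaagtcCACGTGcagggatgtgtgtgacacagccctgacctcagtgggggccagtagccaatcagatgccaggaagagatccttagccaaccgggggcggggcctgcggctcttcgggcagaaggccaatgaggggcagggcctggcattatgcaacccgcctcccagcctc
Tef: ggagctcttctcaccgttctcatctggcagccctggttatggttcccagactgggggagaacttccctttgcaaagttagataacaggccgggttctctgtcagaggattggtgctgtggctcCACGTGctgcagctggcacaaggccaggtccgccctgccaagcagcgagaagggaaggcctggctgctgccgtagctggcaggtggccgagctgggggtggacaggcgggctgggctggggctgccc

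**Figure D2:**
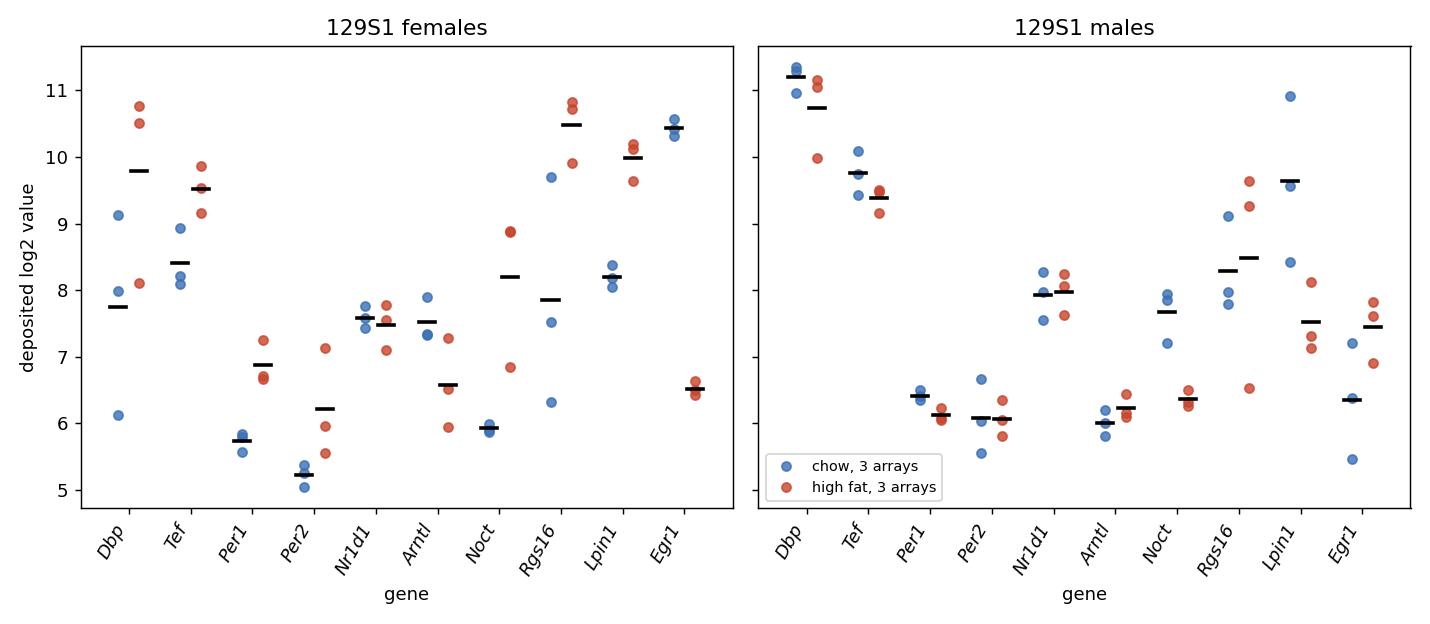
Deposited log2 values of 6 clock genes and of Noct, Rgs16, Lpin1 and Egr1 (horizontal axis) in 129S1 females (left) and males (right); blue points are the 3 chow arrays, red points the 3 high-fat arrays, and bars the group means. Lpin1 is higher on high fat in females (log2 1.79) and lower in males (log2 -2.12), and Egr1 on chow is above 10 in females and at most 7.21 in males.

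The response of 129S1 females was next set against that of males of the strain. The change on high fat minus chow differed by sex in 441 genes (2.42%), more positive in females in 195 (1.07%) and more negative in 246 (1.35%). Males had 1467 called genes. The genes called in both sexes numbered 192, which was 26.9% of the female and 13.1% of the male calls, and 180 of them moved the same way. Of the 441 genes 134 were called in females only, 227 in males only, 21 in both and 59 in neither. The total fell to 154 without male chow array 1, 198 without male high-fat array 2 and 281 without female chow array 3, and was 69 when only the 12 arrays of the strain were fitted.

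Cholesterol synthesis and LXR targets gave no gene with a called sex difference by limma. At an unadjusted p under 0.05 the counts were 4 of 17 and 5 of 10, against 2926 of 18193 over all genes. When single arrays were left out, at most 1 gene of each list was called. The synthesis median was -1.475 in females and -1.093 in males, and the LXR median 1.373 and 1.292. For Sqle the change in females minus that in males was -1.25 (SE 0.55, adjusted p = 0.29), and a p above the threshold does not show that the sexes respond alike.

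Among the lists, macrophage markers had the most called differences: in 16 of 23 the change was less positive in females than in males, in none more, and the median change was 0.273 in females and 2.153 in males. Over all genes a sex difference was called in 2.42%, more negative in females in 1.35%. Lyz2, lysozyme of myeloid cells, read 9.41, 9.74 and 10.29 and 9.88, 10.27 and 10.43 in females but 8.27, 8.53 and 8.67 and 11.59, 12.49 and 10.79 in males (female minus male log2 change -2.75 ± 0.44 (SE), adjusted p = 8e-05). C1qa, a complement chain made by Kupffer cells, read 8.58, 8.85 and 9.24 and 8.72, 8.86 and 9.17 in females and 7.65, 7.61 and 7.79 and 9.71, 9.89 and 9.07 in males (female minus male log2 change -1.85 ± 0.34 (SE), adjusted p = 0.00057). Csf1r read 9.89, 9.86 and 9.94 and 11.68, 12.16 and 11.06 in males (female minus male log2 change -1.69 ± 0.31 (SE), adjusted p = 0.00045). The groups started from different levels: the mean of the 23 markers on chow was 7.969 ± 0.214 (SD, n = 3) in females and 7.087 ± 0.052 in males, and on high fat 8.431 ± 0.217 and 9.143 ± 0.598. By these means females were above males on chow and below them on high fat. The 16 became 12 without male high-fat array 2 and 14 to 18 without any other array. Among acute phase genes the change was less positive in females in 5 of 24, in 2 without female chow array 3, in 3 without female high-fat array 1 or male chow array 1 and in 1 without male high-fat array 2. Saa2 read 5.78, 6.55 and 6.88 and 11.26, 12.82 and 10.49 in males and 7.30, 8.12 and 10.21 and 9.32, 9.82 and 10.32 in females (female minus male log2 change -3.84 ± 0.92 (SE), adjusted p = 0.011), a call lost without female chow 3, male chow 1 or male high-fat 2 (log2 -3.53 to -3.01, adjusted p from 0.066 to 0.097). Saa1 and Saa2 are near-identical, so their probe sets may share signal. Orm3, an orosomucoid, showed the same order (female minus male log2 change -1.93 ± 0.41 (SE), adjusted p = 0.0038).

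**Figure D3:**
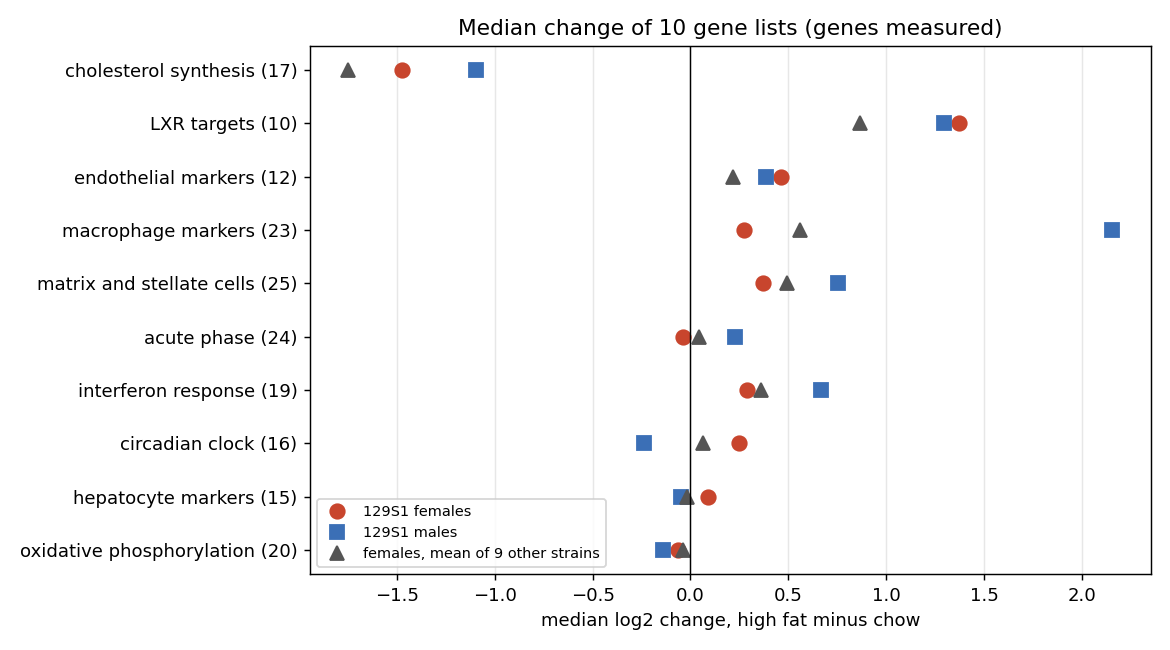
Median log2 change, high fat minus chow, of the members of 10 gene lists (number measured in brackets) in 129S1 females (circles), 129S1 males (squares) and females of 9 other strains (triangles, median over genes of the mean of the strains). The macrophage list lies at 0.273 in 129S1 females and 2.153 in males, while cholesterol synthesis and LXR targets lie on the same side in all.

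Lpin1 gave the largest positive sex difference (log2 3.91 ± 0.54 (SE), adjusted p = 5e-06). It fell in males, from 10.92, 8.42 and 9.57 to 7.13, 7.31 and 8.12, and rose in females. Tef (female minus male log2 change 1.49 ± 0.30 (SE), adjusted p = 0.0019) and Per1 (female minus male log2 change 1.43 ± 0.32 (SE), adjusted p = 0.0064) rose in females and differed by -0.38 and -0.29 in males (adjusted p = 0.32 and 0.51). On chow, Tef was lower in females than in males, at 8.94, 8.09 and 8.21 against 10.10, 9.75 and 9.43. In all, 4 of 16 clock genes, these with Dbp and Nr1d2, had a more positive change in females (1.07% of all genes did) and none a more negative one. That count was 2 without female chow array 2, female high-fat array 2, male chow array 1 or male high-fat array 2, and 7 without female chow array 1 and 6 without female high-fat array 3. The Dbp difference was lost without female chow 2, female high-fat 1, female high-fat 2, male chow 1 or male high-fat 2 (log2 1.71 to 2.45, adjusted p from 0.066 to 0.19), and that of Nr1d2 without female chow 2, female chow 3, female high-fat 2, male chow 1 or male high-fat 2 (log2 0.61 to 0.73, adjusted p from 0.06 to 0.12). Sult1e1 read 3.98, 3.99 and 4.01 and 4.39, 4.56 and 4.70 in males, near the bottom of the array's range, against its rise in females (female minus male log2 change 2.60 ± 0.41 (SE), adjusted p = 6.1e-05). With no detection calls, values this low may be background, and the size of that difference is uncertain. Egr1 gave the largest negative difference (log2 -5.02 ± 0.99 (SE), adjusted p = 0.0014), at 5.46, 6.38 and 7.21 on chow and 7.82, 7.62 and 6.90 on high fat in males. Mup10 in males read 11.97, 11.58 and 11.41 and 11.91, 10.88 and 12.12 (female minus male log2 change -3.94 ± 0.77 (SE), adjusted p = 0.0012). Id1 read 6.43, 6.92 and 7.07 and 7.47, 6.99 and 6.99 in males (female minus male log2 change -1.76 ± 0.36 (SE), adjusted p = 0.0023).

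**Figure D4:**
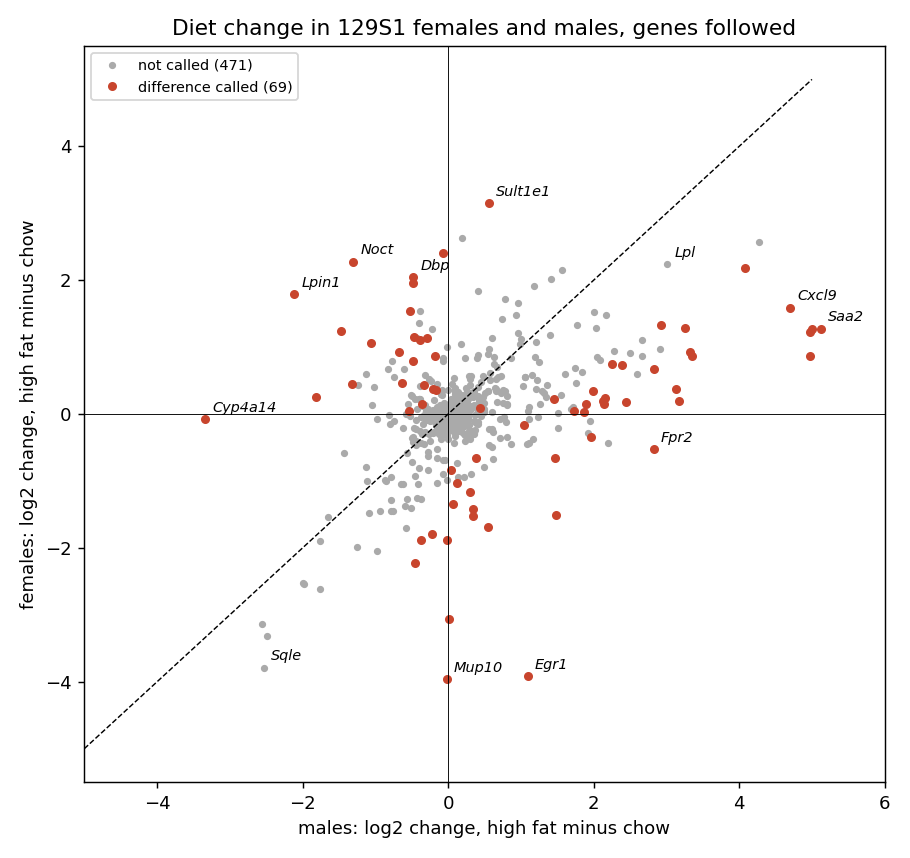
Log2 change, high fat minus chow, in 129S1 males (horizontal axis) and females (vertical axis) for the genes of the lists and those named; each point is a gene, red where the sex difference was called, and the dashed line marks equal change. Egr1 and Mup10 lie far below the line, Lpin1 and Sult1e1 above it, and Lpl and Sqle are not called.

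Against the females of the 9 other strains, far fewer genes stood out. The change in 129S1 females differed from the mean change of those strains in 54 genes (0.297%), more positive in 39 (0.214%) and more negative in 15 (0.0824%), and 47 of the 54 were also called for diet. By number of female calls 129S1, with 713, ranked 3 of 10 strains, between NZB with 2237 and BALB with 508. The rank rests on single arrays, since the 426 and 438 calls left without chow array 3 or high-fat array 3 are fewer than those of BALB and of I (479). The 54 became 27 without high-fat array 3 and 28 without chow array 3, and 129 without high-fat array 2 and 83 without chow array 2. Without BALB they were 84.

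Of the 20 genes named by the rule for this comparison, 6 kept their calls when any 1 female array of 129S1 was left out. Sult1e1 rose by 3.16 in 129S1, against changes of -0.42 to 2.56 with a median of 0.11 in the other strains (difference from their mean log2 2.70 ± 0.30 (SE), adjusted p = 5.2e-09). Lpin1 rose by 1.79, against changes of -1.21 to 1.06 with a median of -0.54 (difference from the mean of the other strains log2 2.15 ± 0.40 (SE), adjusted p = 0.0022). Ranbp3l, a Ran-binding protein that exports SMAD proteins from the nucleus, read 4.98, 5.17 and 5.20 on chow and 6.63, 6.39 and 5.79 on high fat (difference from the mean of the other strains log2 1.06 ± 0.18 (SE), adjusted p = 0.00063), while the other strains changed by -0.44 to 0.84 with a median of 0.05. Its second probe set was not called. Egr1 fell by 3.92 on the log2 scale, against -2.11 to 0.80 with a median of -0.13 (difference from the mean of the other strains log2 -3.55 ± 0.74 (SE), adjusted p = 0.008). Id2, a relative of Id1, read 11.02, 10.91 and 11.35 and 9.73, 9.69 and 9.83 (difference from the mean of the other strains log2 -1.39 ± 0.21 (SE), adjusted p = 3.1e-05), and the other strains changed by -0.64 to 0.37 with a median of 0.17. Cdh1, E-cadherin, read 9.06, 9.28 and 9.38 and 7.66, 7.91 and 7.56 (difference from the mean of the other strains log2 -1.13 ± 0.22 (SE), adjusted p = 0.0039). The other strains changed by -1.58 to 0.39 with a median of -0.51, so that 1 other strain had a fall as deep. In Sult1e1, Lpin1, Ranbp3l, Egr1 and Id2 the 129S1 change was the most extreme of the 10. These genes were picked for a large difference from the same strains, so that place adds no support.

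**Figure D5:**
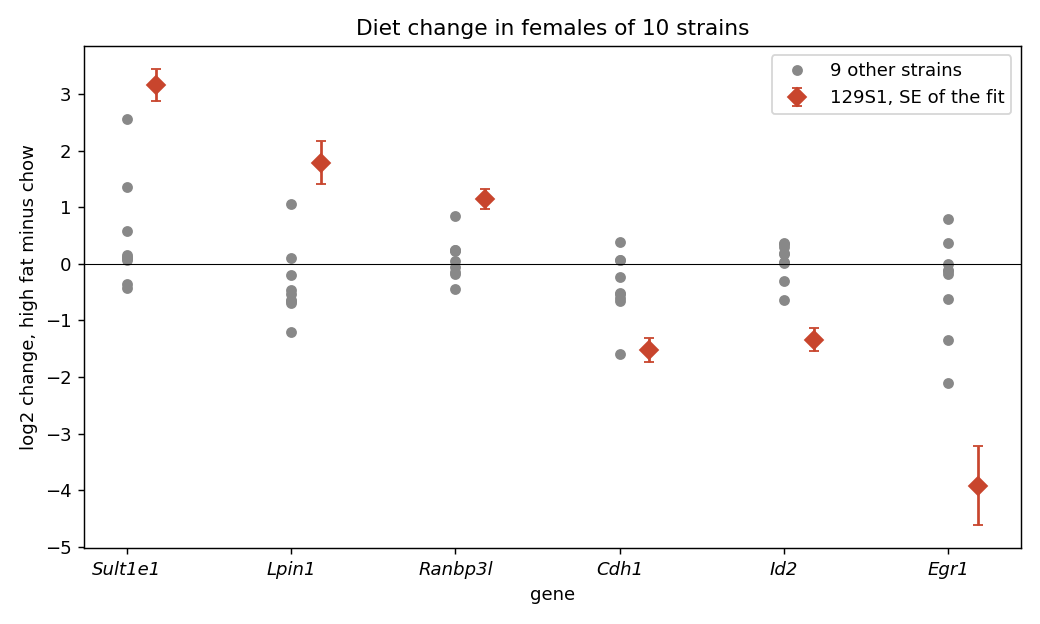
Log2 change, high fat minus chow, in females for 6 genes (horizontal axis); grey points are 9 other strains and red diamonds 129S1 with the standard error of the fit. The 6 genes were picked for a large difference between 129S1 and the mean of these strains. The 129S1 value lies beyond all 9 strains for 5 genes and within their range for Cdh1.

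Several lists had few or no calls in 129S1 females. No lymphocyte (14 genes), neutrophil (11), proliferation (22), NRF2 (20) or oxidative phosphorylation (20) gene was called by limma, with medians between -0.122 and -0.041, where 3.92% of all genes were called. At an unadjusted p under 0.05 the counts were 0, 0, 1, 6 and 3, against 2849 of 18193 over all genes. The proliferation gene among them, Pcna, the DNA polymerase clamp, differed by 0.41 (adjusted p = 0.1) and was called higher without chow array 2 (log2 0.55, adjusted p = 0.027) or high-fat array 3 (log2 0.59, adjusted p = 0.015). Mki67, a proliferation marker, read 4.83, 6.91 and 4.67 on chow, high in chow array 2, and 4.89, 4.98 and 5.26 on high fat. A single gene of 18 for fatty acid oxidation, 1 of 22 chemokine and inflammation genes and 1 of 21 ER stress genes rose, and none fell. They were Acaa1b, a peroxisomal thiolase (log2 0.35 ± 0.10 (SE), adjusted p = 0.046), lost without female chow 1, female chow 3, female high-fat 1 or female high-fat 3 (log2 0.25 to 0.31, adjusted p from 0.18 to 0.39), Nfkbia, the inhibitor of NF-kappaB (log2 0.57 ± 0.15 (SE), adjusted p = 0.021), lost without female chow 1, female high-fat 2 or female high-fat 3 (log2 0.45 to 0.54, adjusted p from 0.087 to 0.2), and Herpud1, a factor in the degradation of misfolded proteins (log2 0.84 ± 0.20 (SE), adjusted p = 0.0047), lost without female high-fat 3 (log2 0.74, adjusted p = 0.058). By sign alone 10 of the 18, 5 of the 22 and 15 of the 21 were lower on high fat.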

How the data were processed

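Liver RNA of single mice was hybridised to expression arrays. The deposited log2 values, 1 table of 45101 probe sets by 144 arrays, were made by the authors with RMA, per the submitters' processing notes, whose version and array set are not given in the sources used here. RMA corrects background, equalises the arrays' distributions and summarises probes, and it compresses low intensities, which can understate folds. Array medians lay between 5.000 and 5.092, and the 3 arrays a group limit the precision.

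Control probe sets (64) were left out and 45037 were fitted with limma 3.58.1 in R 4.3.3 as 40 cell means over the 120 arrays of the 10 strains harvested at 11 to 13 weeks (80 residual degrees of freedom), with Benjamini-Hochberg adjustment over all of them. The contrasts were high fat minus chow in 129S1 females, that change minus the male one, and that change minus the mean of the females of 9 other strains. Probe sets were named through the platform annotation, updated by gene ID against RefSeq. With controls left out, 34945 had 1 symbol. Over all 45101 probe sets, controls included, 932 had several symbols and 9211 none. A gene was read from its 1-symbol probe set with the highest mean over the 120 arrays, which gave 18193 genes. The members and the 34 gene lists were chosen with earlier results of these data known, and no test was made on a list. Named genes were the 15 largest rises and 15 largest falls with non-overlapping arrays for the diet contrast, the 10 largest each way for the other contrasts, and core list members.

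Alternatives were other sets of arrays, a replicate block, a variance trend, array weights, other scaling, other units of the fit, a filter on low values, a threshold of 0.01 and each array left out. Leaving out the 6 SM male arrays, whose diet labels are in doubt, or each other strain was chosen after seeing the data. On simulated data with 200 changed probe sets for each size, the diet contrast recovered 76% at a log2 change of 0.5, 97% at 1 and 100% at 2, with 3.02% false calls. The simulated noise was independent and normal, with 1 spread per probe set in all groups. In the data the spread could differ, as in the female cholesterol synthesis mean (SD 0.897 on chow, 0.207 on high fat). These rates are therefore not those of the real calls. The labels give 3 replicates a group, each taken as 1 animal, so p-values rest on the spread between animals within groups. For each probe set that spread was pooled over the 40 groups of the fit. A printed SE or p-value is therefore not that of the 6 female arrays alone, and the SE can be smaller or larger than theirs. Replicate numbers were not used to pair the animals in the main fit. Promoter sequences are RefSeq's.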

Additional observations from a re-analysis of the deposited data

Results flagged for a closer look

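The genes given here were noted because the diet change in 129S1 females differed from that in another group by a test of the difference itself, limma at an adjusted p under 0.05. No explanation is offered for them. Values are log2 differences of log2 changes. The table holds no detection calls, so sizes that rest on low values, such as those of Sult1e1, are uncertain.

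The change in females was more positive than that in 129S1 males in Lpin1 (3.91), Noct (3.58), Cyp4a14 (3.27), Alas1 (2.71), Sult1e1 (2.60), Dbp (2.52), Nox4 (2.47), Mfsd2a (2.45), Resf1 (2.12) and Plk3 (2.08). It was more negative than in males in Egr1 (-5.02), BC023105 (-4.10), Mup10 (-3.94), Saa2 (-3.84), Lcn2 (-3.74), Saa1 (-3.74), Fpr2 (-3.35), Cxcl9 (-3.11), Cyp3a16 (-3.08) and Tubb2a (-2.99). Cyp4a14, a fatty acid hydroxylase, and Plk3, a stress-responsive kinase, fell in males (log2 -3.34 ± 0.64 (SE), adjusted p = 0.00011 and log2 -1.82 ± 0.38 (SE), adjusted p = 0.00046), while their female changes were -0.07 and 0.26 (adjusted p = 0.99 and 0.9). Cxcl9, an interferon-induced chemokine, read 5.97, 5.91 and 6.16 on chow and 10.88, 11.58 and 9.68 on high fat in males, against 6.44, 7.57 and 7.15 and 8.43, 8.33 and 9.17 in females. Among these 20 genes the calls of Lpin1, Sult1e1, Resf1, Egr1 and Mup10 were kept when any 1 of the 12 arrays was left out.

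Against the mean of the females of 9 other strains the change was more positive in Sult1e1 (2.70), Lpin1 (2.15), Dct (1.31), Ranbp3l (1.06), Slc25a32 (0.99), Mylip (0.94), Pcolce2 (0.92), BC018473 (0.92), Ip6k2 (0.88) and Cdip1 (0.88). The change was more negative in Egr1 (-3.55), Prom1 (-1.85), Gadd45a (-1.78), Id2 (-1.39), Osgin1 (-1.32), Cdh1 (-1.13), Apoa4 (-1.11), Ube2u (-0.79), Fmn1 (-0.77) and Itgb3bp (-0.77). Dct read 5.13, 5.30 and 5.11 on chow and 4.25, 4.65 and 4.96 on high fat in 129S1 and its female change was not called (adjusted p = 0.45), while the other strains changed by -3.15 to -0.52 with a median of -1.79. The 129S1 readings of Dct lay near or below the array medians, so a fall may be understated and the size of the difference is uncertain. Apoa4, an apolipoprotein of intestine and fatty liver, changed by -0.12 in 129S1 (adjusted p = 0.93) and by 0.21 to 1.97 with a median of 0.76 elsewhere. Gadd45a, a stress-response gene, changed by -0.65 (adjusted p = 0.44) and by 0.47 to 2.45 with a median of 1.10 elsewhere.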

How the results depend on the processing

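No gene followed reversed its called direction under any alternative run. At an adjusted p under 0.01 the counts were 360 for diet (243 higher, 117 lower), 161 for diet by sex (63 and 98) and 23 against other strains (14 and 9). Only the 6 female arrays gave 49 genes (36 and 13, 34 at 2-fold), and only the 12 arrays of 129S1 gave 105 for diet (67 and 38, 54 at 2-fold) and 69 by sex (18 and 51), with fewer residual degrees of freedom by construction. With array weights the diet falls numbered 160, the sex counts were 243 (109 and 134) and the strain count 35 (9 lower). The mean of a gene's probe sets gave 24 lower against other strains. The cause of these shifts was not tested.

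Leaving out single arrays gave 426 to 635 genes for diet (279 to 428 higher, 139 to 215 lower, 102 to 140 at 2-fold). For diet by sex the range was 154 to 560 (60 to 228 more positive, 94 to 352 more negative). Against other strains it was 27 to 129 (18 to 93 and 8 to 36). Leaving out BALB gave 84 genes (64 more positive), and leaving out SM gave 24 more negative. Without the 6 SM male arrays the counts were 683, 447 and 48. Of the genes followed, 52 of 98 called for diet, 22 of 55 by sex and 6 of 21 against other strains kept their calls without each array. Fewer diet and sex calls held in all settings run: 17 of the 98 for diet and 10 of the 55 by sex. Against other strains it was again 6 of the 21.

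The replicate block gave 673, 449 and 55 genes for the 3 contrasts. Deviations of same-numbered female arrays correlated at -0.088, -0.214 and 0.162, and those of other chow and high-fat pairs at -0.356 to 0.362. With 3 arrays a group, these values cannot decide whether the numbers pair the animals.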
